A study of Homo sapiens with 6 samples.

Results

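CAMK2N1, DDC, FOLH1, UGT2B15, UGT2B17, MET and OPRK1 are 7 genes taken as ones that androgen normally represses in prostate cells. They were followed by symbol, out of 26688 distinct genes in the tables, through 6 RNA-seq libraries of C4-2B cells. C4-2B is an established line of human prostate cancer cells, a descendant of LNCaP that can spread to bone. Cells were kept 48 h with a compound or vehicle in a medium whose serum was mostly charcoal-stripped, so that it was low in steroids as after castration. The 3 treated groups were SR2211 at 5 µM, XY011 at 5 µM and ENZ (enzalutamide) at 20 µM, and each had a vehicle library of its own experiment. SR2211 is an inverse agonist of a nuclear receptor, XY011 is a code name with no structure given, and ENZ is an antiandrogen used against prostate cancer. All groups share 1 cell line and the steroid-poor medium, and each group is 1 library. Titles of the SR2211 and XY011 vehicle libraries carry different dates, and those of the ENZ pair carry none. Nothing in the labels says whether libraries of the same experiment came from separate cultures. Groups follow titles and agents, since the extraction protocols give another code where XY011 would stand, and SR2211 for the ENZ pair.

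Androgen switches some prostate genes on and holds others down, and the second kind rises when androgen is withdrawn or blocked. Among the genes held down are enzymes that inactivate androgen itself, a membrane hydrolase used to image prostate cancer, and receptors for growth factors and opioids. Because the vehicle cells were in the same steroid-poor medium, the comparisons ask what a compound changed in that medium. How much androgen signalling the vehicle cells kept was not measured.

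The SR2211 table listed all 7 genes, the XY011 table listed 6 (UGT2B17 was not among its rows) and the ENZ table listed 4 (CAMK2N1, DDC, FOLH1 and MET). Levels are RPKM in the SR2211 experiment and FPKM in the other experiments, both of which scale reads for gene length and sequencing depth. A change is log2((treated + 1)/(vehicle + 1)) within an experiment. With 1 library per group there is no replicate check and no p-value within an experiment. A gene was instead called higher or lower by size, at a log2 change of at least 1 in a gene that reached a level of 1 in either library. Only 3 of the 7 genes reached that level with SR2211 or its vehicle, 3 with XY011 or its vehicle, and 4 with ENZ or its vehicle. Depth was about 8.16 M mapped reads with SR2211 and 8.20 M with vehicle, and it is unknown for the other experiments. The luminal prostate markers KRT8, KRT18, EPCAM, HOXB13 and KLK3 were listed in every table, and KLK3 is also a gene that androgen induces. KLK3 was called lower with SR2211 (-2.68) and XY011 (-1.51), and its change with ENZ was -0.74. HOXB13, a transcription factor of the prostate lineage, was called lower with SR2211 (-1.48) and XY011 (-1.55), and its change with ENZ was 0.33. Changes of KRT8, KRT18 and EPCAM lay between -0.82 and 0.09 in all 3 experiments, and none was called. Of 3 basal markers, 1, 1 and 2 were listed in the SR2211, XY011 and ENZ tables, none above 3.39 in any library, and of 5 fibroblast markers, 3, 1 and 4 were listed. The endothelial and immune markers that were listed stood below 1.

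By size, CAMK2N1 was higher and DDC lower with SR2211, where 5.1% of the 12163 genes at that level were called higher and 5.75% lower. The same pair was called with XY011, CAMK2N1 higher and DDC lower, beside 7.59% of 12630 genes called higher and 13.2% called lower. CAMK2N1 alone of the 4 was called higher with ENZ and none was called lower, beside 3.68% of 19283 genes called higher and 4.68% lower. The split of all calls depended on scaling: 47.0% of them were higher with SR2211 and 36.5% with XY011 as deposited, against 58.4% and 47.3% once each table was centred on its median gene at levels of at least 5. That centring shifted every change by 0.09 with SR2211 and 0.11 with XY011 (log2). It left the calls of CAMK2N1 and DDC in place.

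**Figure D1:**
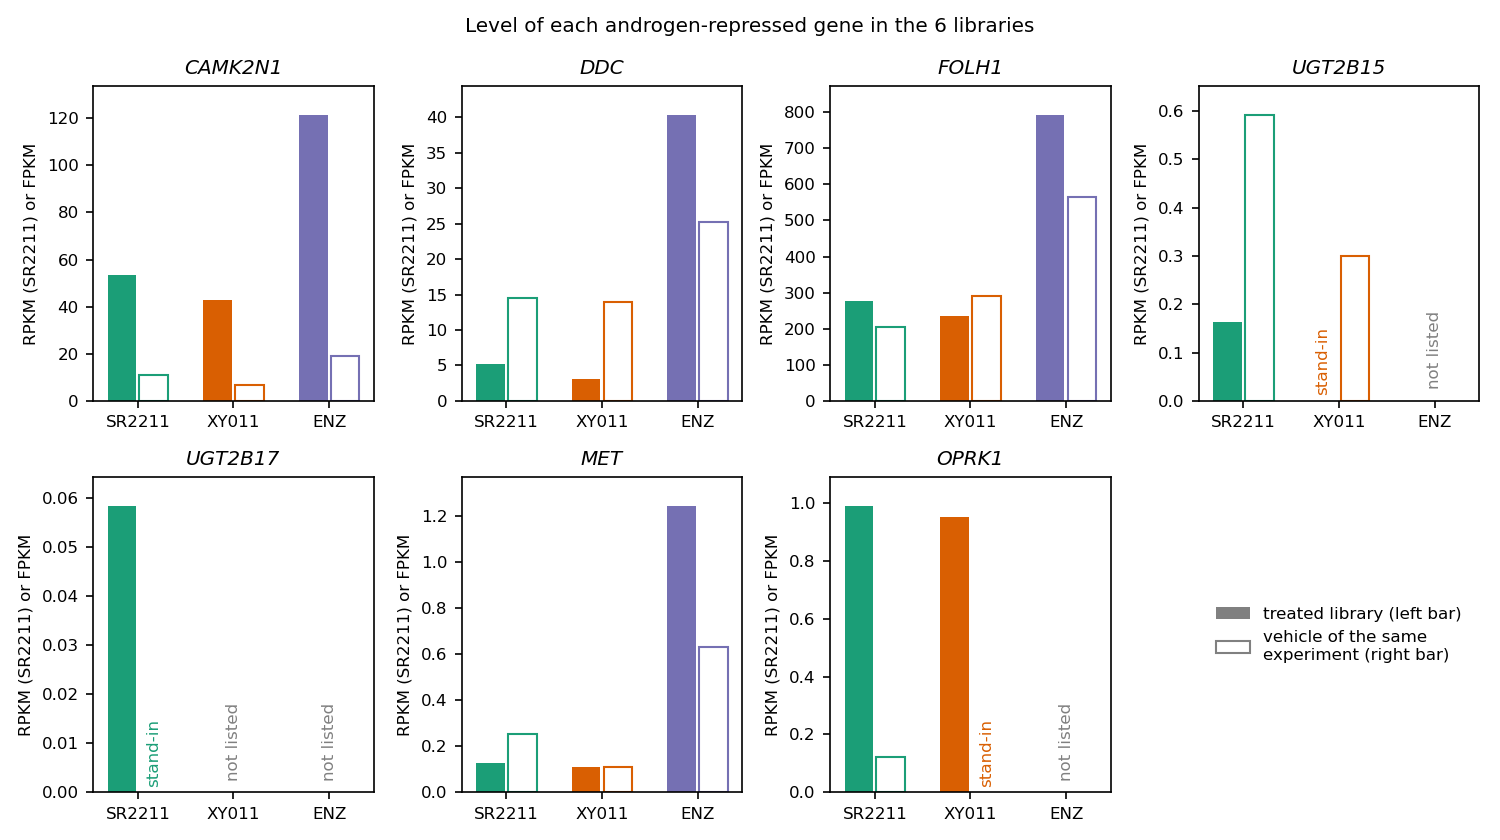
Level of each gene (RPKM in the SR2211 experiment, FPKM in the XY011 and ENZ experiments; each panel has its own linear axis from 0) in the treated library, left, and the vehicle library, right, of each experiment, with 1 library per bar and no error bar. A bar is replaced by "stand-in" where the table gives its fixed small value for a gene without a level, and by "not listed" where the table has no row. CAMK2N1 stands higher in every treated library, DDC stands lower with SR2211 and XY011 and higher with ENZ, and FOLH1 stands higher with SR2211 and ENZ and lower with XY011.

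CAMK2N1, on chromosome 1, encodes a small protein that binds and inhibits calcium/calmodulin-dependent kinase II. Its level was 53.5 RPKM with SR2211 and 10.9 RPKM with vehicle. It was 43.0 FPKM with XY011 and 6.76 FPKM with vehicle. It was 122 FPKM with ENZ and 19.2 FPKM with vehicle. The treated library was thus several times higher in all 3 experiments, by 4.93-fold with SR2211, 6.36-fold with XY011 and 6.34-fold with ENZ. The log2 changes were 2.20, 2.50 and 2.60 in the same order, and by size CAMK2N1 ranked 74th from the highest with SR2211, 60th with XY011 and 14th with ENZ. In the SR2211 pair, where read numbers were worked back from RPKM, 1035 reads with SR2211 stood against 211 with vehicle. The ratio of 4.93 had an exact 95% interval of 4.25 to 5.74. For this gene 2 lengths gave whole reads, so the read numbers are not unique. Intervals of this kind cover counting error only.

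Of 11211 genes at a level of 1 or more in all 3 experiments, 57 (0.508%) were called higher in all 3 and 100 (0.892%) lower in all 3. Of the 11211, CAMK2N1 and IFI27L2 had changes of at least 2.20, the smallest of CAMK2N1, in every experiment. That cutoff was taken from CAMK2N1 itself, so it was bound to include CAMK2N1 and to leave few genes. IFI27L2 is named after its values were seen. The genes whose 3 changes lay nearest to those of CAMK2N1 were PDE2A, which encodes a cyclic nucleotide phosphodiesterase, at a Euclidean distance of 0.56, and BACE2, which encodes a membrane protease, at 0.96. Changes of PDE2A were 1.95 with SR2211, 2.71 with XY011 and 2.15 with ENZ. Those of BACE2 were 1.82 with SR2211, 1.71 with XY011 and 2.21 with ENZ. These nearness values span 3 experiments and describe the libraries only.

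In a list of 9 other CaM kinase II genes (kinase subunits, CAMK2N2, the calmodulins and the upstream kinase CAMKK2), 8 were measured in each experiment. With SR2211, 1 of the 8 was called higher and 1 lower, and the list's median change was -0.13. With XY011 the counts were 2 higher and 1 lower with a median of -0.52, the second higher gene being the subunit CAMK2G (1.18), and with ENZ 0 higher and 1 lower with a median of 0.19. The median over all genes was -0.07 with SR2211, -0.14 with XY011 and -0.02 with ENZ. In the same order, 5.1%, 7.59% and 3.68% of all genes were called higher and 5.75%, 13.2% and 4.68% lower. CAMK2D, a catalytic subunit of the kinase that CAMK2N1 inhibits, was at 6.84 RPKM with SR2211 and 2.53 RPKM with vehicle, and at 6.25 FPKM with XY011 and 1.35 FPKM with vehicle. With ENZ it was at 3.88 FPKM and with vehicle at 3.03 FPKM, a change of 0.28 that was not called. CAMKK2, which androgen induces in prostate cancer cells, was called lower in all 3 experiments, with changes of -1.52 with SR2211, -1.78 with XY011 and -1.21 with ENZ.

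DDC, on chromosome 7, encodes the aromatic amino acid decarboxylase that makes dopamine and serotonin. Its level was 5.28 RPKM with SR2211 and 14.5 RPKM with vehicle, which was 2.74-fold lower. It was 3.10 FPKM with XY011 and 13.9 FPKM with vehicle, which was 4.49-fold lower. With ENZ the level was 40.4 FPKM, against 25.2 FPKM with vehicle, a log2 change of 0.66 that did not reach the size rule. DDC therefore stood below its vehicle with both 5 µM compounds and above it with ENZ, which was given at 20 µM. Reads in the SR2211 pair were 90 with SR2211 and 248 with vehicle, a ratio of 0.365 with an exact 95% interval of 0.283 to 0.466. Exons of DDC overlap an antisense gene, DDC-AS1, and nothing in the sources used here says whether reads were counted by strand, so reads of the genes cannot be told apart.

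Among the 11211 genes at a level of 1 or more throughout, 517 (4.61%) were called lower with SR2211 and with XY011, as DDC was. Of those 517, 47 (0.419% of the 11211) had a positive change with ENZ. A change of at least 0.5 was held by 7 (0.0624% of the 11211), DDC among them. That cutoff is not the size rule and lies under the ENZ change of DDC (0.66), so it was bound to include DDC. The median ENZ change over all genes was -0.02, and the shares of all genes with such ENZ changes were not counted. The nearest genes to DDC by the 3 changes were FAM166B at a distance of 0.19 and MARVELD1 at 0.25. FAM166B changed by -1.30 with SR2211, -1.96 with XY011 and 0.50 with ENZ. MARVELD1 changed by -1.06 with SR2211, -1.81 with XY011 and 0.65 with ENZ.

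The amine list holds 13 genes of synthesis, packaging and breakdown, of which 6 were measured in each experiment. No gene of it was called with SR2211 (median change -0.38) or with ENZ (median -0.14). With XY011, 0 were called higher and 2 lower (median -0.84), beside 13.2% of all genes called lower. Among the 2 was GCH1 (-1.11), which starts synthesis of a cofactor of amine synthesis. Its change was -0.22 with SR2211 and -0.57 with ENZ. This and other list genes called in a single experiment were named after their values were seen. DDC is also raised in prostate tumours with neuroendocrine features, so markers of such cells are given here. Of 7 neuroendocrine markers, 5, 2 and 2 were listed in the SR2211, XY011 and ENZ tables. Their summed level was 4.47 RPKM with SR2211 and 2.71 RPKM with vehicle, 3.23 FPKM with XY011 and 1.67 FPKM with vehicle, and 11.6 FPKM with ENZ and 10.3 FPKM with vehicle. These sums were higher in each treated library, whichever way DDC went, and most of each sum was ENO2, a glycolytic enzyme that other cells also make. SYP, a synaptic vesicle protein and more specific marker, was at 0.650 RPKM with SR2211 and 0.747 RPKM with vehicle, at 0.32 FPKM with XY011 and 0.74 FPKM with vehicle, and at 1.06 FPKM with ENZ and 0.915 FPKM with vehicle. CHGA, a defining marker, was listed only in the SR2211 table, at the stand-in value with SR2211 and at 0.176 RPKM with vehicle. The luminal marker HOXB13, given above, stood below its vehicle with SR2211 and XY011 and above it with ENZ, as DDC did. The part of these markers in the DDC values was not tested. In bulk RNA, fewer cells of a type and less RNA per cell cannot be told apart.

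FOLH1, on chromosome 11, encodes prostate-specific membrane antigen, a surface carboxypeptidase that trims glutamates from folates and is a target for imaging and radioligand therapy. It was the most abundant of the 7 genes in every library. Its level was 277 RPKM with SR2211 and 204 RPKM with vehicle. It was 234 FPKM with XY011, against 290 FPKM with vehicle, and 793 FPKM with ENZ, against 564 FPKM with vehicle. The log2 changes were 0.44 with SR2211, -0.31 with XY011 and 0.49 with ENZ, and none reached the size rule. At the shared dose of 5 µM and time of 48 h, FOLH1 thus stood above its vehicle with SR2211 and below it with XY011. The size of that difference has no interval, since each compound had 1 library. Counting error was small in the SR2211 pair: the ratio of 1.36 had an exact 95% interval of 1.31 to 1.41, though 71 gene lengths gave whole reads and the read numbers behind it are not unique.

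FOLH1 has a near-identical copy, FOLH1B, a transcribed pseudogene on the same chromosome, and reads from one can be counted for the other. Over 2132 aligned bases of the 2250-base FOLH1 coding sequence the genes were 98.7% identical, and the longest run without a difference was 414 bases. A stretch of 120 bases shows how little separates them. It starts at coding base 1124 of FOLH1 and ends at base 1243 (GENCODE 29 transcripts), and the capital marks the only base that differs.
FOLH1: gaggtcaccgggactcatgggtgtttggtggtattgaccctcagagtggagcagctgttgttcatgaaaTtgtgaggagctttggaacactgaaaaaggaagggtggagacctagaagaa
FOLH1B: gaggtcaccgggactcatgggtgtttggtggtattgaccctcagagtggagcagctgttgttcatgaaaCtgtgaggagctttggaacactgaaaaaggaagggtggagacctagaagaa
Across the FOLH1 coding sequence, 48.1% of 50-base words and 23.7% of 100-base words also occur in the copy.

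FOLH1B was near the floor in the experiments at 5 µM: 0.246 RPKM with SR2211 and 0.429 RPKM with vehicle, and 0.20 FPKM with XY011 and 0.35 FPKM with vehicle. In the ENZ table it was at 98.3 FPKM with ENZ and 144 FPKM with vehicle. FOLH1B thus made up 11.0% of the summed level of both genes with ENZ and 20.4% with vehicle, but no more than 0.210% in any library of the other experiments. The sum over both genes was 891 FPKM with ENZ and 708 FPKM with vehicle, a log2 change of 0.33, against 0.49 for FOLH1 alone. Sums in the other experiments gave the same changes as FOLH1 alone to 2 decimals, 0.44 with SR2211 and -0.31 with XY011. The genes nearest to FOLH1 by their 3 changes were SYT15 at a distance of 0.13 and ZNF720 at 0.15.

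The list of folate genes and FOLH1 relatives holds 14 genes, of which 11 were measured in each experiment. With SR2211, 1 was called higher, SHMT2 (1.01), and 3 lower (median change -0.67), beside 5.1% of all genes higher and 5.75% lower. With XY011, 0 were called higher and 4 lower (median -0.94), among them SHMT1 (-1.70), beside 13.2% of all genes called lower. SHMT2 and SHMT1 are the mitochondrial and cytosolic enzymes that load folate with a carbon from serine. None was called with ENZ (median -0.03). Genes called lower with both 5 µM compounds included TFRC and SLC19A1. TFRC, the transferrin receptor and a structural relative of FOLH1 that takes up iron, was at 34.7 RPKM with SR2211 and 184 RPKM with vehicle, and at 13.4 FPKM with XY011 and 129 FPKM with vehicle. It was not among the rows of the ENZ table. SLC19A1, the reduced folate carrier, changed by -1.29 with SR2211, -1.57 with XY011 and -0.65 with ENZ.

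UGT2B15 and UGT2B17, on chromosome 4, encode the glucuronosyltransferases that inactivate dihydrotestosterone in prostate cells. Both were near the floor. UGT2B15 was at 0.162 RPKM with SR2211 and 0.593 RPKM with vehicle, which are 3 and 11 reads. The ratio of 0.274 had an exact 95% interval of 0.0491 to 1.04, so a difference was not detectable at this depth. In the XY011 experiment UGT2B15 stood at the table's stand-in value of 0.001 with XY011 and at 0.30 FPKM with vehicle. UGT2B17 was at 0.0584 RPKM with SR2211, which is 1 read, and at the stand-in value of 0.01 with vehicle, which is 0 reads. A count of 0 in that vehicle library allows up to 3 reads, or 0.175 RPKM. Neither gene was among the rows of the ENZ table, which held no gene at 0 in its vehicle library.

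These genes are copies of each other, so at such low numbers even single reads could belong to either. Their coding sequences were 96.5% identical over 1590 aligned bases, with a longest identical run of 199 bases, and 36.1% of the 50-base words of UGT2B15 occur in UGT2B17. A stretch of 60 bases, from coding base 242 to base 301 of UGT2B15, held the most differences, 9, which are in capitals. Only reads that cover a differing base, here or elsewhere in the sequence, tell the genes apart.
UGT2B15: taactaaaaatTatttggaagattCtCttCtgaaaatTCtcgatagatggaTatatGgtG
UGT2B17: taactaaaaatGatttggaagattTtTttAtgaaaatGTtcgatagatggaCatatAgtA
A stretch of 120 bases, from coding base 735 to base 854 of UGT2B15, is the same in both genes.
UGT2B15 and UGT2B17: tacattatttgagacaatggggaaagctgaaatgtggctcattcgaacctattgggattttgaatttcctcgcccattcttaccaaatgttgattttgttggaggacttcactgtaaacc

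Of 11 further genes of glucuronidation, 3 were measured in every experiment: UGT8, which makes galactosylceramide, and UGDH and UGP2, which make the sugar donor. None was called with SR2211 (median change 0.07) or ENZ (median 0.25). With XY011, 1 was called lower, UGT8 (change -1.19, list median 0.04), beside 13.2% of all genes. The other UGT2B genes that were listed stood at 0.132 RPKM or less in the SR2211 pair.

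MET, on chromosome 7, encodes the receptor for hepatocyte growth factor. In the SR2211 experiment it was at 0.128 RPKM with SR2211 and 0.255 RPKM with vehicle, from 7 and 14 reads, and the ratio of 0.502 had an exact 95% interval of 0.172 to 1.33. In the XY011 experiment it was at 0.11 FPKM with XY011 and at 0.11 FPKM with vehicle. In the ENZ experiment it was at 1.24 FPKM with ENZ and 0.631 FPKM with vehicle, a ratio of 1.97. MET thus reached the level that a call needs only with ENZ, and there its log2 change of 0.46 did not reach the size rule. The tables were normalized separately, so that level is not the same mark in each. By rank, MET stood above 21.0% of the genes with ENZ and 12.7% with its vehicle. These shares were 15.2% with SR2211 and 20.8% with its vehicle, and 9.94% with XY011 and 7.01% with its vehicle. Because the pseudocount of 1 is close to these levels, the log2 change understates the ratio. The ENZ pair has no read numbers and so no interval.

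The MET pathway list holds 12 genes: ligands, the proteases and inhibitors that control ligand activation, adaptors, phosphatases and the related receptor MST1R. With SR2211, 9 were measured, none was called, and the median change was 0.36. With XY011, 8 were measured, 3 were called higher and 0 lower, beside 7.59% of all genes called higher, and the median was 0.76. The 3 were HPN (1.13), a protease that activates the ligand, GAB1 (1.21), the docking adaptor of the receptor, and CBL (1.01), which marks the receptor for breakdown. With ENZ, 9 were measured, none was called, and the median was 0.17. No gene of the list was called in more than 1 experiment.

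OPRK1, on chromosome 8, encodes the kappa opioid receptor, a G protein-coupled receptor for dynorphins. It was at 0.988 RPKM with SR2211 and 0.123 RPKM with vehicle. It was at 0.95 FPKM with XY011 and at the table's stand-in value of 0.001 with vehicle. OPRK1 was not among the rows of the ENZ table, which held no gene at 0 in its vehicle library. Whether ENZ changed OPRK1 therefore cannot be told. The treated value was the higher in both 5 µM experiments and lay just under the level of 1 that a call needed. In reads, 40 with SR2211 stood against 5 with vehicle, and the ratio of 8.04 had an exact 95% interval of 3.17 to 26.1. No ratio is given for XY011, because its vehicle was at the stand-in. With a pseudocount of 1 the log2 changes were 0.82 with SR2211 and 0.96 with XY011. They rested on the pseudocount, at 2.29 with SR2211 and 3.38 with XY011 for 0.1. Among all genes of the SR2211 table with no filter on level, 7.59% passed a log2 change of 1 in either direction at the pseudocount of 1 and 18.9% at 0.1, and in the XY011 table these shares were 16.3% and 33.2%. The XY011 changes of OPRK1 hold the stand-in and are no measured fold. Of the 7 other opioid ligands and receptors, 3, 1 and 2 were listed in the SR2211, XY011 and ENZ tables, and all were below 1 in every library.

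**Figure D2:**
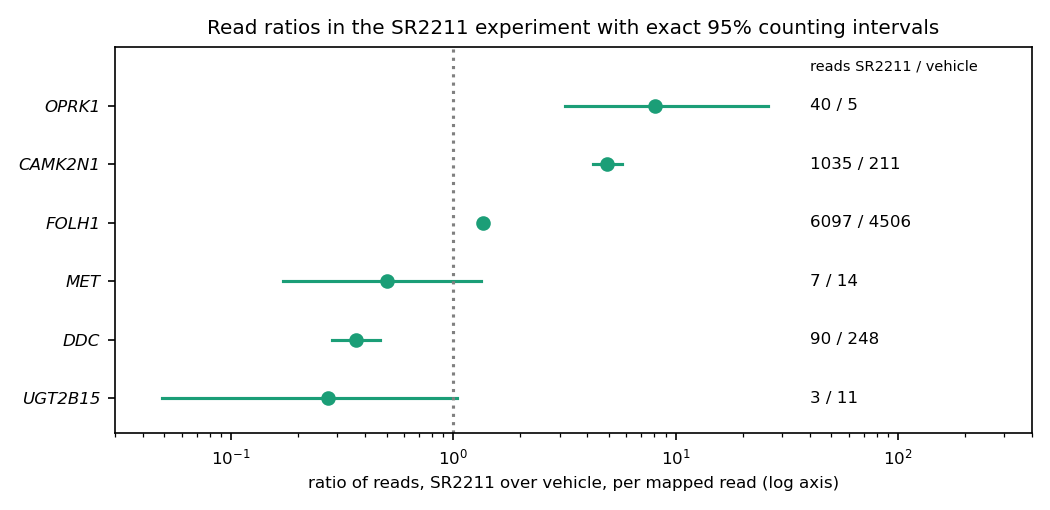
Ratio of reads in the SR2211 library to reads in its vehicle library (log axis) for the genes with reads in both, with exact 95% intervals that cover counting error only, and the read numbers printed beside each point. The intervals of CAMK2N1, OPRK1 and FOLH1 lie above 1 and that of DDC below 1, while those of UGT2B15 and MET include 1.

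FOLH1 was the highest of the 7 genes in all 6 libraries. DDC was above CAMK2N1 in each vehicle library and CAMK2N1 above DDC in each treated library. MET, OPRK1 and the UGT2B genes stayed near or below a level of 1 apart from MET with ENZ, and their order among themselves rests on few reads. Levels of the 3 tables were normalized separately. The vehicle levels differed by 2.83-fold between experiments for CAMK2N1, 1.81-fold for DDC and 2.77-fold for FOLH1, so that levels are set side by side here only within an experiment.

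A fit over all 6 libraries gave the only p-values. It used limma on log2(value + 1) with experiment as a term, 1 coefficient shared by SR2211 and XY011 and 1 for ENZ, over 12001 genes listed in all 3 tables, with Benjamini-Hochberg adjustment. It had 1 residual degree of freedom, so its spread is that between 2 compounds treated as replicates, whose experiments carry different dates. CAMK2N1, DDC and FOLH1 met its filter. CAMK2N1 rose with SR2211 and XY011 as a class by 2.35 ± 0.20 (log2, SE), with a limma adjusted p of 0.00447, where 9.27% of genes passed as higher. DDC fell in the same class, with a change of -1.58 ± 0.22 (log2, SE), with a limma adjusted p of 0.00926, where 13.5% passed as lower. Both compounds showed the direction for each of these genes. Neither call held at a pseudocount of 0.1, where limma passed 0 genes in either direction (4111 had an unadjusted p under 0.05), and the adjusted p ranged over 7 alternatives from 0.000177 to 0.238 for CAMK2N1 and from 0.00186 to 0.278 for DDC. FOLH1 had a class value of 0.07 ± 0.24 with a limma adjusted p of 0.860.

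For ENZ the same fit gave CAMK2N1 2.60 ± 0.28 (log2, SE), with a limma adjusted p of 0.0635 that missed the threshold of 0.05, where 0.0333% of genes passed as higher and 0.0583% as lower. Its adjusted p ranged over 5 alternatives from 0.00453 to 0.656. The ENZ values of DDC (0.66 ± 0.31, limma adjusted p 0.453) and FOLH1 (0.49 ± 0.34, limma adjusted p 0.624) did not pass either. The difference between the class and ENZ, at doses that were not the same, was -2.24 ± 0.38 for DDC, with an unadjusted p of 0.000914 and a limma adjusted p of 0.164, where 0.025% of genes passed as higher and 0.0167% as lower. Its adjusted p ranged from 0.0532 to 0.440 over the alternatives, so the opposite directions of DDC did not pass as a difference. For CAMK2N1 the difference was -0.25 (limma adjusted p 0.749), and for FOLH1 -0.42 (limma adjusted p 0.646). The ENZ pair leaves no residual in this fit, so these SE and p values come from the spread between SR2211 and XY011. They measure no spread of ENZ. A p that misses the threshold does not show that the compounds act alike.

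**Figure D3:**
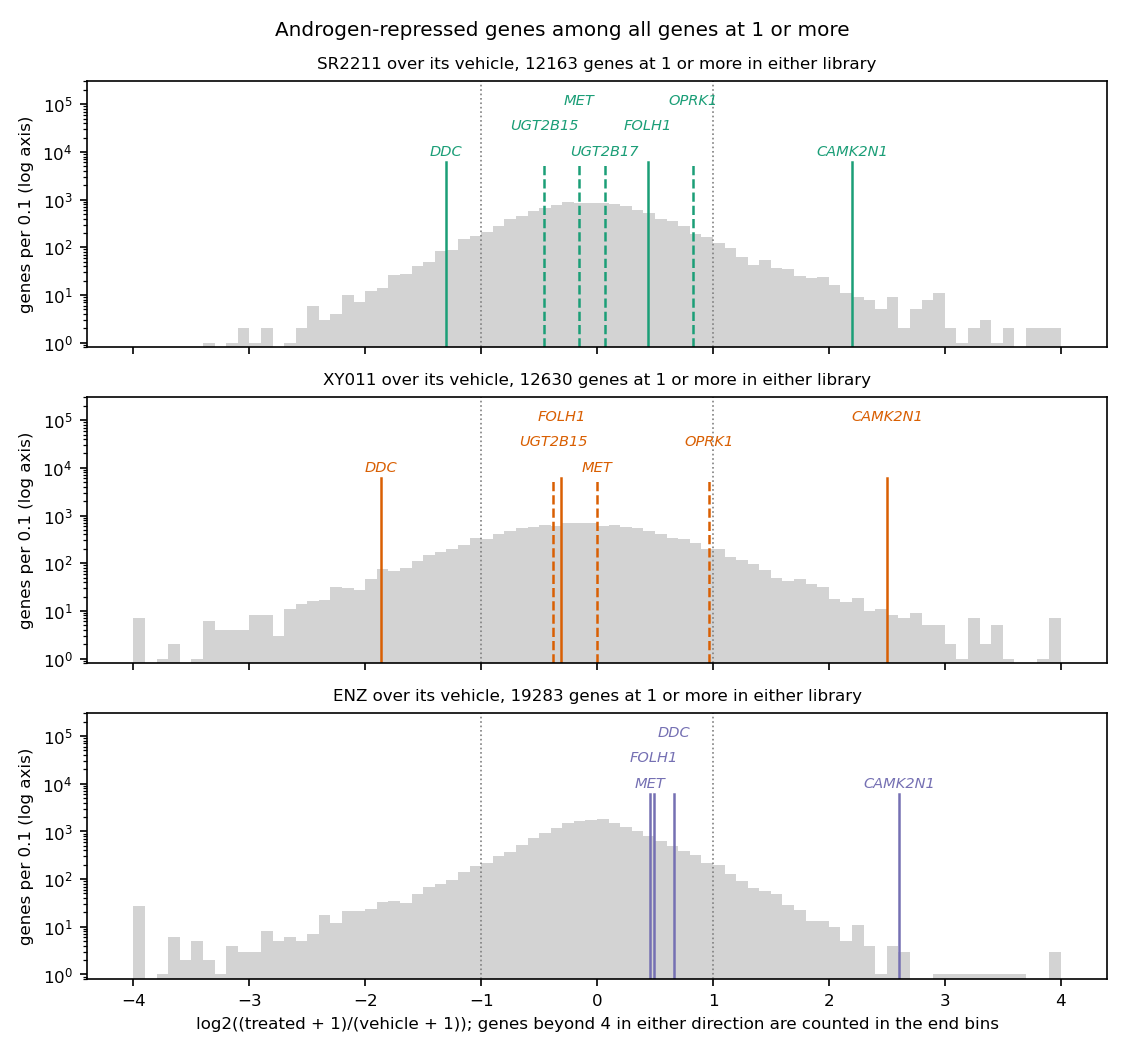
Distribution of log2((treated + 1)/(vehicle + 1)) over all genes at a level of 1 or more in either library (number of genes, log axis), in 1 panel per experiment, with the androgen-repressed genes as lines, dashed where the gene stayed below a level of 1, and the size rule as dotted lines at 1 and -1. Changes beyond 4 are counted in the end bins. CAMK2N1 lies in the upper tail in all 3 panels, DDC in the lower tail with SR2211 and XY011 only, and FOLH1 between the dotted lines in each.

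Other genes taken as androgen-repressed were listed separately: AKR1C3, HSD17B6, PRKD1, BCL2, CLU, IGFBP3, GRB10 and CDH2. With SR2211, 5 of the 8 were measured, 2 were called higher and 1 lower, and the median change was 0.57. With XY011, 5 were measured, 2 were called higher and 0 lower, and the median was -0.55. With ENZ, 6 were measured, 1 was called higher and 1 lower, and the median was 0.28. Shares of all genes called higher were 5.1%, 7.59% and 3.68% in the same order, and lower 5.75%, 13.2% and 4.68%.

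IGFBP3, which binds insulin-like growth factors outside the cell, was called higher in all 3 experiments. It was at 14.2 RPKM with SR2211 and 1.53 RPKM with vehicle, at 4.28 FPKM with XY011 and 0.60 FPKM with vehicle, and at 8.42 FPKM with ENZ and 3.65 FPKM with vehicle. GRB10, an adaptor that dampens insulin receptor signalling, was called higher with SR2211 (log2 change 1.47) and XY011 (1.30), and its change with ENZ was 0.60. HSD17B6, an enzyme that can regenerate androgen from its breakdown products, was called lower with SR2211 (-1.22) and ENZ (-1.71), and its change with XY011 was -0.94.

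Genes that androgen induces were listed for comparison. This list was chosen with earlier results of these data known, so its counts are no independent check. Of 20 such genes, KLK3, TMPRSS2 and FKBP5 among them, 19 were measured in each experiment. With SR2211, 0 were called higher and 16 lower (median change -1.86). With XY011 it was 0 higher and 14 lower (median -2.21), and with ENZ 0 higher and 15 lower (median -1.84). Over all genes, 5.75%, 13.2% and 4.68% were called lower, in the same order. Among the 7 repressed genes, 3, 3 and 4 were measured with SR2211, XY011 and ENZ, and their medians were 0.44, -0.31 and 0.58. With SR2211 and XY011 that median is the change of FOLH1 itself. OPRK1 was below the level needed and is not in these medians. Lower levels of most induced genes were thus seen in the same libraries in which CAMK2N1 was higher and, for SR2211 and XY011, DDC was lower.

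**Figure D4:**
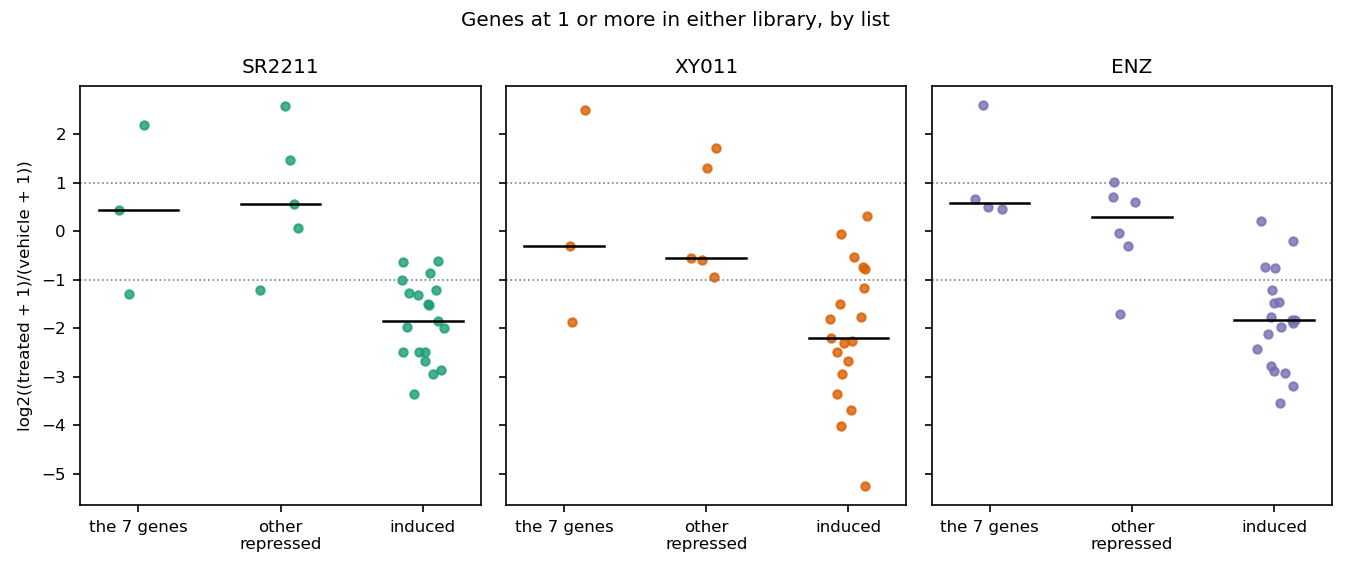
Log2 change of each measured gene (points) among the 7 genes, the other repressed genes and the induced genes, with the median as a bar and the size rule as dotted lines, in 1 panel each for SR2211, XY011 and ENZ. Most androgen-induced genes lie below -1 with every compound, with medians of -1.86, -2.21 and -1.84, while the repressed genes lie on both sides of 0.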

How the data were processed

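Poly(A) RNA of 6 C4-2B libraries (TruSeq kit, per the labels' protocols) was measured, with the ENZ pair sequenced as paired-end reads of 100 bases. The authors deposited RPKM for the SR2211 experiment and FPKM for the XY011 experiment (to 2 decimals) and the ENZ experiment. Aligners and quantifiers listed in the submitters' processing notes are Bowtie, BWA, Cuffdiff and Cufflinks, and the builds are hg19 and GRCh37. Their roles, versions, annotation and strand use were not given in the sources used here.

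Genes without a level stood at 0.01, 0.001 and 0 in the SR2211, XY011 and ENZ tables, and none did in both libraries. No ratio was computed against these stand-ins, but log2 changes and counts of calls use them as deposited. Small RNA genes were left out. Repeated ENZ symbols were summed, and 13494 genes were joined across all 3 tables by identifier and symbol.

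Read numbers of the SR2211 pair came from the depth that gave whole reads (within 0.01) for 26 of 26 microRNA genes with vehicle and 34 of 35 with SR2211. Annotated transcript lengths fitted for only 1 of the 7 genes, FOLH1. The tolerance for a whole read number in this step grew with the reads. For CAMK2N1 and FOLH1, which had many reads, a fitting length is therefore weak evidence of the true length. Instead, the whole-number length within 10% of the longest GENCODE 29 transcript and nearest to it was used. The ratio of reads does not depend on that length, but the interval does.

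Changes, the size rule and the class fit are as given with the results (R 4.3.3, limma 3.58.1, Python 3.11.15, pandas 2.3.3, scipy 1.17.1), and the code was tested on simulated data. The class fit kept genes with a mean of 1 or more, with a prior of 5.35 degrees of freedom. Alternatives were 2 smaller pseudocounts, level filters, a 1.5-fold size rule, centring, quantile scaling and other designs of the fit. The contrast of class and ENZ was added after seeing the data. Named genes are the 7 genes, for those measured throughout the 2 nearest by Euclidean distance of the 3 changes, and at most 4 per list that were called the same way in 2 or more experiments. List genes called in 1 experiment, cell type markers and IFI27L2 are named outside that rule, after their values were seen. Induced genes are given by counts. The members and lists were chosen with earlier results of these data known. Values of some list genes are not reported here.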

Additional observations from a re-analysis of the deposited data

Results flagged for a closer look

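DDC moved in opposite directions under different compounds: its log2 change was -1.30 with SR2211 and -1.86 with XY011, against 0.66 with ENZ, whose dose was 20 µM rather than 5 µM. The limma contrast of the class with ENZ gave an adjusted p of 0.164 for it. FOLH1 stood above its vehicle with SR2211 (0.44) and ENZ (0.49) and below it with XY011 (-0.31), and the differences between single compounds were not tested. MET stood below its vehicle with SR2211 (-0.15) and above it with ENZ (0.46), a difference that was not tested and that rests on 7 and 14 reads on the SR2211 side.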

How the results depend on the processing

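No paired analysis by replicate number was possible because the labels give none. The class fit pairs each treated library with its vehicle through the experiment term. No library was left out within an experiment, since that leaves no comparison. CAMK2N1 kept its call within all 3 experiments, and DDC its call with SR2211 and XY011, under every alternative tried there. The ENZ change of DDC (0.66) was not called, but it would pass a 1.5-fold size rule, as 11.6% of all genes did as higher.

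Genes near the floor depended on the pseudocount. At 0.1 and 0.01, UGT2B15 changed by -1.40 and -1.81 with SR2211 and by -1.99 and -4.82 with XY011 (log2). OPRK1 changed by 2.29 and 2.91 with SR2211 and by 3.38 and 6.45 with XY011, and UGT2B17 by 1.77 with SR2211 at 0.01. Values of UGT2B15 and OPRK1 with XY011, and of UGT2B17, hold a stand-in and are no measured folds. OPRK1 with XY011 also reached a log2 change of 1 after centring (1.07) and quantile scaling (1.05).

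Counts of genes called with SR2211 came to 965 higher and 1054 lower at a pseudocount of 0.1, and 1676 and 2094 at 1.5-fold, against 620 and 699. With XY011 the 1.5-fold counts were 2147 higher and 3512 lower, against 958 and 1664. With ENZ they were 1311 and 1457 at 0.1, 461 and 528 for genes at 5 or more, and 2235 and 2395 at 1.5-fold, against 709 and 902.

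In the class fit CAMK2N1 missed the threshold at a pseudocount of 0.1 (2.47, limma adjusted p 0.0667) and without the experiment term (1.99, limma adjusted p 0.238). DDC missed it at 0.1 (-1.79, limma adjusted p 0.0681), with 1 coefficient for all 3 compounds (-0.84, limma adjusted p 0.278) and without the experiment term (-1.84, limma adjusted p 0.233). FOLH1 turned to -0.34 without that term, and the difference of CAMK2N1 between class and ENZ to 0.041 under quantile scaling. Genes passing numbered 0 higher and 0 lower by limma at 0.1 (4111 at an unadjusted p under 0.05) and without the experiment term (1614), and 30 higher and 68 lower with 1 coefficient, against 1113 and 1618. Quantile scaling made 49.5% of the class calls higher, against 40.8%, and 49.6% of the XY011 calls. The cause of these shifts was not tested.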

Other observations

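COL1A1 and MAOA were named after their values were seen. COL1A1, a collagen of fibroblasts, was at 34.8 FPKM with ENZ and 14.1 FPKM with vehicle, a log2 change of 1.25. It was at 5.62 RPKM with SR2211 and 3.70 RPKM with vehicle, and at 3.45 FPKM with XY011 and 2.00 FPKM with vehicle. The other fibroblast markers listed with ENZ did not follow it: changes were 0.08 for COL1A2, -0.08 for COL3A1 and -0.90 for DCN, and none was called. MAOA encodes the monoamine oxidase that breaks down serotonin, which DDC makes. Its log2 change was -0.97 with SR2211, -0.86 with XY011 and -0.90 with ENZ, just short of the size rule each time, while DDC stood below its vehicle with SR2211 and XY011 and above it with ENZ.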
